A study of Rattus norvegicus with 28 samples.

Results

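The transcription factors Foxp1, Foxp2, Bcl11b, Meis2, Six3, Isl1, Ebf1, Sp9, Rarb and Rxrg are known for setting the identity of striatal neurons. They were taken by symbol from the deposited expression table, which lists 39538 genes, and all 10 were found. Their RNA was measured by sequencing the striatum of male rats in 28 libraries. Rats labelled {delta}ETorA, called TG here, carry a human TOR1A transcript with the deletion that causes DYT-TOR1A dystonia, an inherited movement disorder, and wt rats lack it. The right sciatic nerve was crushed for 30 seconds in the crush groups, and all groups carry the label of 12 weeks after injury, the naive ones included. There were 6 TG crush, 6 wt crush, 8 TG naive and 8 wt naive libraries. The sources used here do not give the rats' age, the promoter of the transgene or the side of the striatum taken. The comparisons asked whether these factors differed by genotype in injured and in naive rats, and by injury in each genotype.

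Most neurons of the striatum are spiny projection neurons, inhibitory cells that send the output of this nucleus along a direct and an indirect pathway. They arise from the lateral ganglionic eminence, where Meis2 and Six3 are expressed in precursors. In mice, Bcl11b is required for their differentiation, Ebf1 and Isl1 act in direct pathway neurons, and Sp9 and Six3 act in indirect pathway neurons. Isl1 also marks striatal cholinergic interneurons. Foxp1 and Foxp2 are forkhead repressors kept on in the adult, and Rarb and Rxrg are retinoid receptors that bind DNA as a pair.

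The libraries held 29151455 to 38407359 reads assigned to genes, where a gene with no read could stand at up to 0.103 RPM (reads per 1000000 assigned reads) in the shallowest, counting error only. The human TOR1A transcript stood at 102 RPM or more in every TG library and at 0.972 RPM or less in every wt library. The labelled tissue was checked by the spiny neuron marker Ppp1r1b, which averaged 2270 ± 586 RPM in TG crush, 2753 ± 206 RPM in wt crush, 2323 ± 468 RPM in TG naive and 2175 ± 639 RPM in wt naive libraries (SD, n = 6, 6, 8 and 8). The content of spiny neuron RNA varied between libraries. A spiny neuron level, the mean log2 RPM of 17 markers that include none of the 10 factors, averaged 8.82 ± 0.34 in TG crush, 9.09 ± 0.08 in wt crush, 8.83 ± 0.28 in TG naive and 8.73 ± 0.39 in wt naive libraries. The cortical neuron gene Slc17a7 exceeded 20 RPM in 5 libraries, 1 of TG crush, 1 of TG naive and 3 of wt naive rats. In bulk tissue, fewer cells of a type and less RNA per cell cannot be told apart. Each library has its own number in the labels, which do not say whether each came from its own rat. The p-values therefore reflect only how these libraries spread, which may be technical.

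Sequences before the start of 7 of the 10 genes, matched by gene identifier, were available from RefSeq in build GRCr8, as windows from 250 bases before to 50 bases after the start. The 4 windows below each hold a motif named for the protein family of a factor studied here, and capitals mark that motif. The Six3 window also holds one and is not shown. In the Rarb window the capitals mark the half-sites GGTTCA and AGTTCA in direct repeat with 5 bases between them, known as the retinoic acid response element of Rarb, which begins at base 25 of the gene (chr15:11336142-11336441, plus strand).
Rarb: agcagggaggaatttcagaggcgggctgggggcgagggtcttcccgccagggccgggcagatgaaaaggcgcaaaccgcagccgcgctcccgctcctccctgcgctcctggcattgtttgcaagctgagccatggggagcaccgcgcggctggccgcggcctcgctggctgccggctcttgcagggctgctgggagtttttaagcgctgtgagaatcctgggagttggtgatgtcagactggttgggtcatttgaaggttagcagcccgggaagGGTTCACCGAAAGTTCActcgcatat
In the Rxrg window they mark TGACAG, the motif of MEIS proteins, at position -5 from the start (chr13:82276237-82276536, plus strand).
Rxrg: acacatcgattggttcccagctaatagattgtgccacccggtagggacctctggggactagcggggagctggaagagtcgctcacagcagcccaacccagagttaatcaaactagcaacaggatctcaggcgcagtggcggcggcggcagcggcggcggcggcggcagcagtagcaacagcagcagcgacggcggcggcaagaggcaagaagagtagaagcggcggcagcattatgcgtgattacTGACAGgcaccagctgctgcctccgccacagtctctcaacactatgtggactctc
In the Foxp1 window they mark the forkhead motif TGTTTAC at position -164 (chr4:133353231-133353530, minus strand).
Foxp1: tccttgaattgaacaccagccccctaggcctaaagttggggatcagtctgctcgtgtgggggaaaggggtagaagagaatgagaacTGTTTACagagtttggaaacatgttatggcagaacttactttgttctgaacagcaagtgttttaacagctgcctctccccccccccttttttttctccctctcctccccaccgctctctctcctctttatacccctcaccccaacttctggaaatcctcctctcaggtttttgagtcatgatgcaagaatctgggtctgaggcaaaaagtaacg
In the Isl1 window they mark 2 overlapping matches of the EBF motif CCCNNGGG at positions -106 and -105 (chr2:49823393-49823692, minus strand).
Isl1: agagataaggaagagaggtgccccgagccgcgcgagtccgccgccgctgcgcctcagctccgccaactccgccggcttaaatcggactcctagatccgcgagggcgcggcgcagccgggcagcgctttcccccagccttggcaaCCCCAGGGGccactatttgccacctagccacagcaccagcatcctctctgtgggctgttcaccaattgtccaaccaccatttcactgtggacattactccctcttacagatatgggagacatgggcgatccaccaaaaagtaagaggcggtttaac

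All motifs were searched on both strands in the 33469 RefSeq windows. The repeat in the Rarb window occurs in 3 windows, or 0.00896% of them. The other motifs are common: TGACAG is in 19% of windows, CCCNNGGG in 12.4% and TGTTTAC in 3.78%. Six3 was the only other matched member with one of these motifs, TGACAG at position -148. Its window lies on the minus strand of GRCr8 and the gene on the plus strand of Rnor_6.0, a difference that was not examined. The single half-sites AGTTCA (14.5% of windows) and GGTTCA (11.7%) were found in the Rarb window alone, where they form the repeat, and AGGTCA (16.2%) in none of the 7. A match describes the letters of a window and does not show binding.

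Levels are first given per kilobase of gene span, the scale of the deposited RPKM. The span includes introns, so genes with long introns read low on this scale. The order of the factors on it partly follows their span and is no ranking of transcript abundance. Sp9, highest on this scale, averaged 15.7 RPM, and Foxp1, far lower on it, averaged 185 RPM. Averaged over 28 libraries, the short genes Sp9 (zinc finger, 2531 bases) and Six3 (homeodomain, 4365 bases) stood highest at 6.22 and 5.61 RPKM. Bcl11b followed at 2.32 RPKM, Rxrg at 1.49 RPKM and Meis2 at 1.27 RPKM. Isl1 and Foxp1 lay at 0.315 and 0.307 RPKM. The lowest were Rarb at 0.163 RPKM, Foxp2 at 0.0676 RPKM and Ebf1 at 0.0406 RPKM, and these 3 genes span 347377, 580245 and 396779 bases. In RPM, which sets the depth behind each gene, every factor was counted in every library: from 68 to 181 reads for Isl1, the least covered, and from 5892 to 10929 reads for Meis2, the most covered. All 10 passed the filter of at least 0.5 RPM in at least 6 libraries, which left 18222 genes.

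In Rnor_6.0, the build of the files, Foxp1 and Foxp2 lie on chromosome 4 (131362178 to 131963466, minus strand, and 41364441 to 41944685, plus strand). Bcl11b and Six3 lie on chromosome 6 (131834097 to 131927251, minus strand, and 8886730 to 8891094, plus strand). Meis2 and Sp9 lie on chromosome 3 (107560172 to 107762732, minus strand, and 59981959 to 59984489, plus strand). Isl1 is on chromosome 2 (48488911 to 48501217, minus strand), Ebf1 on chromosome 10 (23654849 to 24051627, plus strand), Rarb on chromosome 15 (9915223 to 10262599, plus strand) and Rxrg on chromosome 13 (85818473 to 85868555, plus strand). Within the span of Rxrg lies an annotated gene of the opposite strand, LOC103692054, at 0.265 RPM or 0.355% of the level of Rxrg. The genes annotated across Bcl11b and Meis2 read at or near 0 RPM.

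Of the forkhead factors, Foxp1 ranged from 126 RPM through a median of 178 to 232 RPM in TG crush libraries, from 190 through 220 to 233 RPM in wt crush, from 125 through 179 to 211 RPM in TG naive and from 99.4 through 171 to 223 RPM in wt naive libraries. The 4 groups overlapped, and the wt crush libraries kept to the upper part of the range. Foxp2, linked to speech in humans, averaged 40.0 ± 7.73 RPM in TG crush, 43.9 ± 5.35 RPM in wt crush, 37.0 ± 6.35 RPM in TG naive and 37.3 ± 4.26 RPM in wt naive libraries (SD, n = 6, 6, 8 and 8).

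Of the zinc finger factors, Bcl11b averaged 217 ± 46.2 RPM in TG crush, 243 ± 19.0 RPM in wt crush, 213 ± 34.0 RPM in TG naive and 200 ± 52.9 RPM in wt naive libraries. Sp9 averaged 16.4 ± 3.11 RPM in TG crush, 16.1 ± 2.52 RPM in wt crush, 15.3 ± 1.83 RPM in TG naive and 15.4 ± 1.66 RPM in wt naive libraries. The 4 means of Sp9 lay within 1 SD of each other.

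Of the homeodomain factors, Meis2 ranged from 183 RPM through a median of 265 to 301 RPM in TG crush libraries, from 249 through 290 to 295 RPM in wt crush, from 211 through 260 to 291 RPM in TG naive and from 186 through 239 to 294 RPM in wt naive libraries. Six3 averaged 24.6 ± 5.10 RPM in TG crush, 26.9 ± 2.16 RPM in wt crush, 24.1 ± 1.70 RPM in TG naive and 23.0 ± 3.35 RPM in wt naive libraries. Isl1 ranged from 2.11 RPM through a median of 4.16 to 4.91 RPM in TG crush libraries, from 4.14 through 4.72 to 4.98 RPM in wt crush, from 2.28 through 3.64 to 4.58 RPM in TG naive and from 2.93 through 3.64 to 4.18 RPM in wt naive libraries. The wt crush and wt naive ranges of Isl1 met only at their ends, the lowest wt crush library at 4.14 RPM lying under the highest wt naive library at 4.18 RPM. Ebf1, the EBF factor, averaged 15.4 ± 1.40 RPM in TG crush, 18.0 ± 1.43 RPM in wt crush, 15.9 ± 1.78 RPM in TG naive and 15.5 ± 2.04 RPM in wt naive libraries.

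Of the retinoid receptors, Rarb ranged from 38.6 RPM through a median of 52.6 to 71.4 RPM in TG crush libraries, from 59.5 through 70.2 to 75.3 RPM in wt crush, from 36.6 through 53.3 to 75.2 RPM in TG naive and from 34.7 through 48.3 to 72.6 RPM in wt naive libraries. Its partner Rxrg ranged from 20.4 RPM through 52.1 to 120 RPM in TG crush libraries, from 75.6 through 96.0 to 123 RPM in wt crush, from 18.7 through 83.1 to 114 RPM in TG naive and from 27.1 through 58.8 to 123 RPM in wt naive libraries. Rxrg spread far more than the others: its highest library held 6.57 times its lowest, against 1.58 to 2.36 times for the other 9 factors. The means of 9 factors were highest in wt crush libraries, and that of Sp9 in TG crush libraries. Of all tested genes, 26.3% had their highest mean in wt crush and 20.2% in TG crush libraries. No group next to another in the order of any factor's means was separated from it without overlap.

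**Figure D1:**
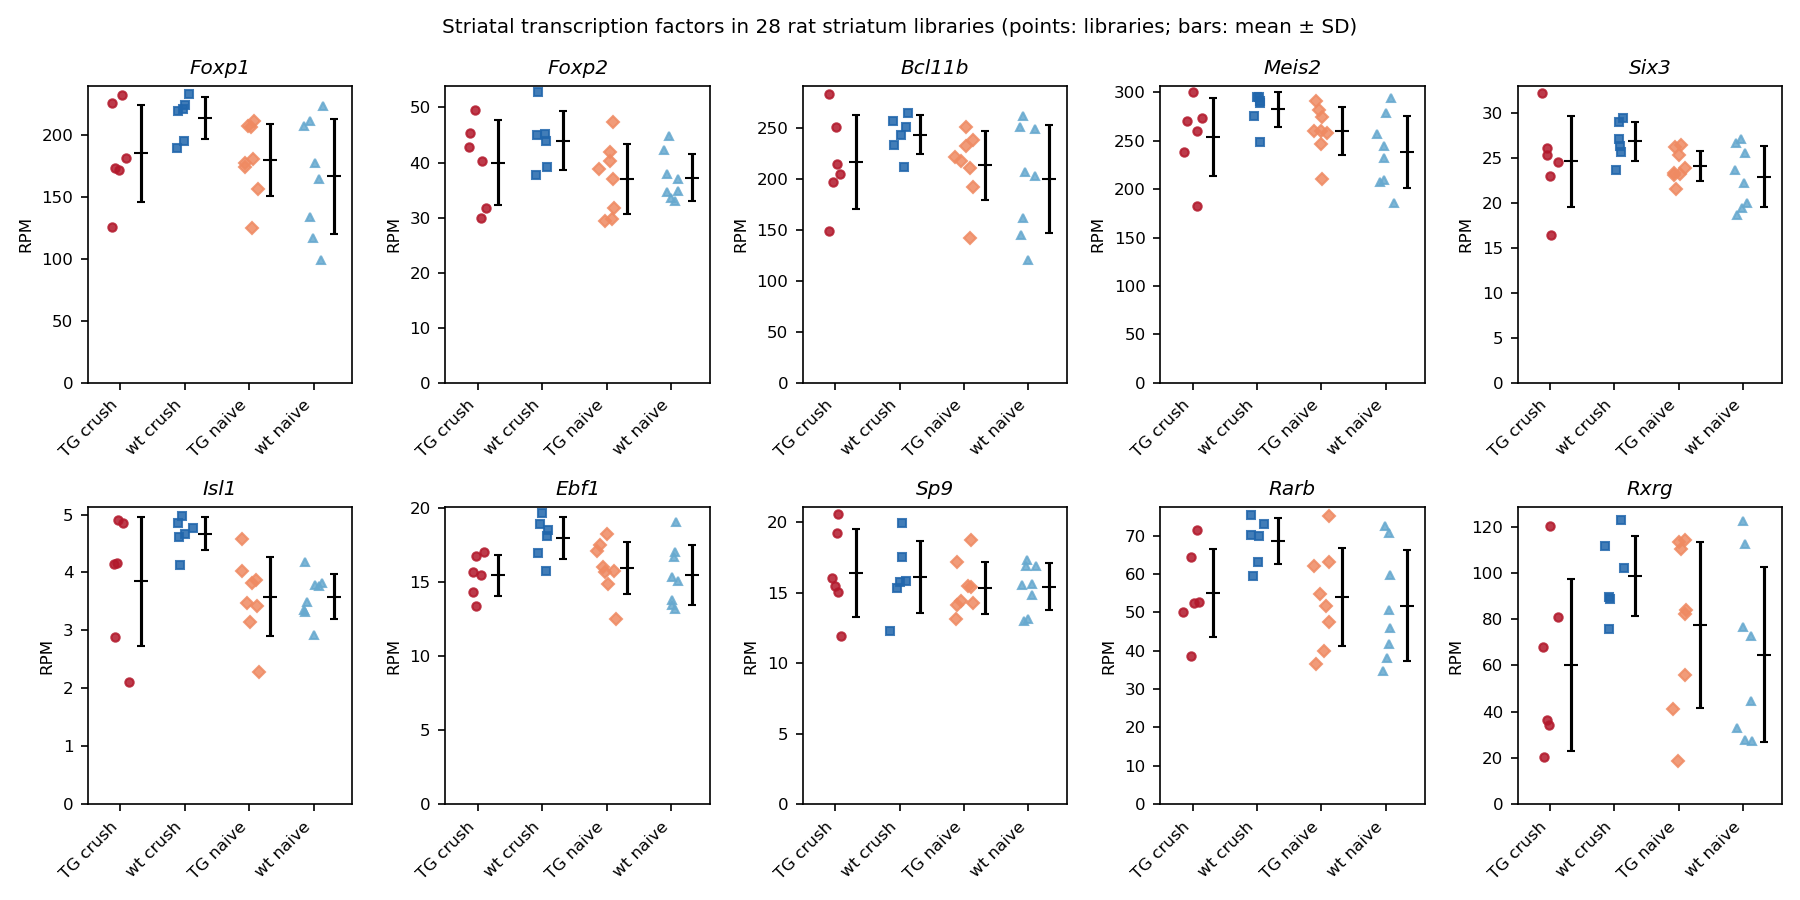
RPM of each of the 10 factors (vertical axes, each from 0) in the libraries of TG crush, wt crush, TG naive and wt naive rats (horizontal axes). Points are libraries and bars show mean ± SD. Groups overlap in every panel, and Rxrg is spread from 18.7 to 123 RPM.

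In each group, 1 or 2 libraries held the lowest values of several factors. In TG crush rats, library 223 was the lowest of its group for all 10 factors, with a spiny neuron level of 8.26 and 18.5% of its reads on mitochondrial genes, the highest share of its group. In wt crush rats, library 203 was the lowest for 7 factors at a spiny neuron level of 9.01, and not the library of the lowest level, which was 207 at 8.99. In TG naive rats, library 192 was the lowest for 6 factors, with a spiny neuron level of 8.27. In wt naive rats, library 201 was the lowest for 4 factors and library 199 for 3, with spiny neuron levels of 8.21 and 8.23.

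Between TG naive and wt naive rats, none of the 10 factors passed the test. The log2 changes lay between -0.02 for Foxp2 and 0.29 (SE 0.37) for Rxrg, with a median of 0.08 beside -0.01 over all genes tested, and the lowest adjusted p was 0.999 (limma, Benjamini-Hochberg). The count of 0 of 10 called stands beside 0.0329% of 18222 genes called. No factor had an unadjusted p under 0.05, as 4.98% of all genes did, and limma-voom on whole reads also called 0. The 95% interval was widest for Rxrg, -0.48 to 1.05, and narrowest for Ebf1, -0.11 to 0.20. The change of Rxrg was 0.55 without library 192 of the TG naive group and 0.14 without library 201 of the wt naive group. No factor separated the groups without overlap, as 0.0494% of all genes did.

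Between TG crush and wt crush rats, 9 of the 10 factors had a negative log2 change and none passed. The largest was that of Rxrg, -0.93 (SE 0.43, 95% interval -1.81 to -0.05, limma adjusted p = 0.609), from means of 60.0 ± 37.2 RPM in TG crush and 98.5 ± 17.3 RPM in wt crush libraries (SD, n = 6 each). Rarb had a change of -0.34 (SE 0.17), Isl1 of -0.30 (SE 0.14), Foxp1 of -0.23 (SE 0.17) and Ebf1 of -0.21 (SE 0.09), and Sp9 one of 0.02 (SE 0.11). The 0 of 10 called stand beside 0.00549% of all genes, and 3 of 10, Ebf1, Rxrg and Isl1, had an unadjusted p under 0.05 beside 8.06% of all genes. Their median was -0.20 beside 0.00 over all genes. All 10 overlapped between the groups, beside 0.384% of all genes that did not.

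The spiny neuron level moved with this comparison, at 8.82 ± 0.34 in TG crush and 9.09 ± 0.08 in wt crush libraries, and 15 of its 17 markers had negative changes, with none called. The level of cortical markers averaged 2.39 ± 0.51 in TG crush and 1.93 ± 0.14 in wt crush libraries. Without the 5 libraries above 20 RPM of Slc17a7, the change of Rxrg was -0.82 (SE 0.44). With the spiny neuron level in the fit, the change was -0.27 (SE 0.15) for Rxrg, -0.08 (SE 0.07) for Rarb, 0.03 (SE 0.05) for Foxp1 and 0.06 (SE 0.06) for Bcl11b. That of Isl1 moved less, to -0.23 (SE 0.14). Without library 223 of the TG crush group, the change was -0.67 for Rxrg, -0.24 for Rarb, -0.16 for Isl1, -0.13 for Foxp1, -0.09 for Bcl11b and -0.04 for Six3.

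Between wt crush and wt naive rats, all 10 factors had a positive log2 change and none passed at an adjusted p under 0.05, beside 0.159% of all genes. Rxrg had the largest change, 0.81 (SE 0.40, limma adjusted p = 0.246), from means of 98.5 ± 17.3 RPM in wt crush (n = 6) and 64.7 ± 37.8 RPM in wt naive libraries (SD, n = 8). Rarb had a change of 0.44 (SE 0.16) with the lowest adjusted p of the 10, 0.153 by limma, Foxp1 one of 0.41 (SE 0.16), Isl1 one of 0.35 (SE 0.13) and Bcl11b one of 0.33 (SE 0.15). Meis2, Foxp2, Six3 and Ebf1 lay between 0.22 and 0.25, and Sp9 at 0.06 (SE 0.10). An unadjusted p under 0.05 was found for 8 of the 10, beside 20.8% of all genes, and the median was 0.29 beside -0.03. All 10 overlapped between the groups, and 0.648% of all genes did not.

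This comparison was the 1 in which a setting changed a call. When libraries that vary more were given less weight (array weights in limma), 3 factors rose in wt crush rats: Meis2 by 0.24 (limma adjusted p = 0.0396), Isl1 by 0.34 (limma adjusted p = 0.0418) and Rarb by 0.40 (limma adjusted p = 0.0484). With these weights 7.88% of all genes were called, beside 3 of 10 factors. Limma-voom called 0 factors. The spiny neuron level again moved with the groups, at 9.09 ± 0.08 in wt crush and 8.73 ± 0.39 in wt naive libraries, with positive changes in 16 of 17 markers. With that level in the fit the change of Rxrg was -0.09 (SE 0.15), that of Bcl11b -0.01 (SE 0.05), that of Foxp1 0.05 (SE 0.05), that of Meis2 0.07 (SE 0.06) and that of Rarb 0.09 (SE 0.07). Isl1 stood at 0.26 (SE 0.14, limma adjusted p = 0.849). Cortical marker RNA moved with the groups as well, at a level of 1.93 ± 0.14 in wt crush and 2.47 ± 0.52 in wt naive libraries. Negative changes were also found in 10 of 10 markers each of astrocytes, oligodendrocytes and endothelium, in 9 of 10 of microglia (median -0.30) and in 8 of 8 of choroid plexus and ependyma (median -0.58), none called, and their part in the result was not tested. Without the 5 libraries above 20 RPM of Slc17a7, of which 3 were wt naive, the change was 0.41 (SE 0.44) for Rxrg, 0.26 (SE 0.17) for Rarb and 0.34 (SE 0.16) for Isl1.

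Between TG crush and TG naive rats, the log2 changes of 9 factors lay between -0.04 and 0.11 and none of the 10 passed, beside 3.08% of all genes, the highest share of the comparisons of groups. Rxrg had a change of -0.41 (SE 0.40, limma adjusted p = 0.629), from means of 60.0 ± 37.2 RPM in TG crush (n = 6) and 77.5 ± 35.9 RPM in TG naive libraries (SD, n = 8). The spiny neuron level was close in both groups, 8.82 ± 0.34 in TG crush and 8.83 ± 0.28 in TG naive libraries. With it in the fit, the change of Rxrg was -0.40 (SE 0.13, 95% interval -0.68 to -0.13, limma adjusted p = 0.0631). In the plain fit it was -0.15 without library 223 of the TG crush group and -0.67 without library 192 of the TG naive group. No factor had an unadjusted p under 0.05 in the plain fit, beside 19.3% of all genes, limma-voom called 0, and all 10 overlapped, beside 0.73% of all genes that did not.

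The effect of crush was also compared between the genotypes. The interaction was -1.22 (SE 0.57, limma adjusted p = 0.655) for Rxrg and -0.28 (SE 0.19) for Isl1, with 0 of 10 called beside 0.00549% of all genes, and 3 of 10, Ebf1, Meis2 and Rxrg, had an unadjusted p under 0.05 beside 7.49%. With the spiny neuron level in the fit it was -0.31 (SE 0.20) for Rxrg, and without library 223 of the TG crush group it was -0.14 for Isl1. Averaged over both arms, TG rats differed from wt rats by -0.32 (SE 0.28) in Rxrg and by -0.16 (SE 0.09) in Isl1, and 0 of 10 factors were called beside 0.0384% of all genes, none with an unadjusted p under 0.05 beside 5.09%. The change over both arms was -0.19 for Rxrg without TG naive 192 and -0.09 for Isl1 without TG crush 223. Limma-voom called 0 of 10 in both. These comparisons share libraries with those above.

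**Figure D2:**
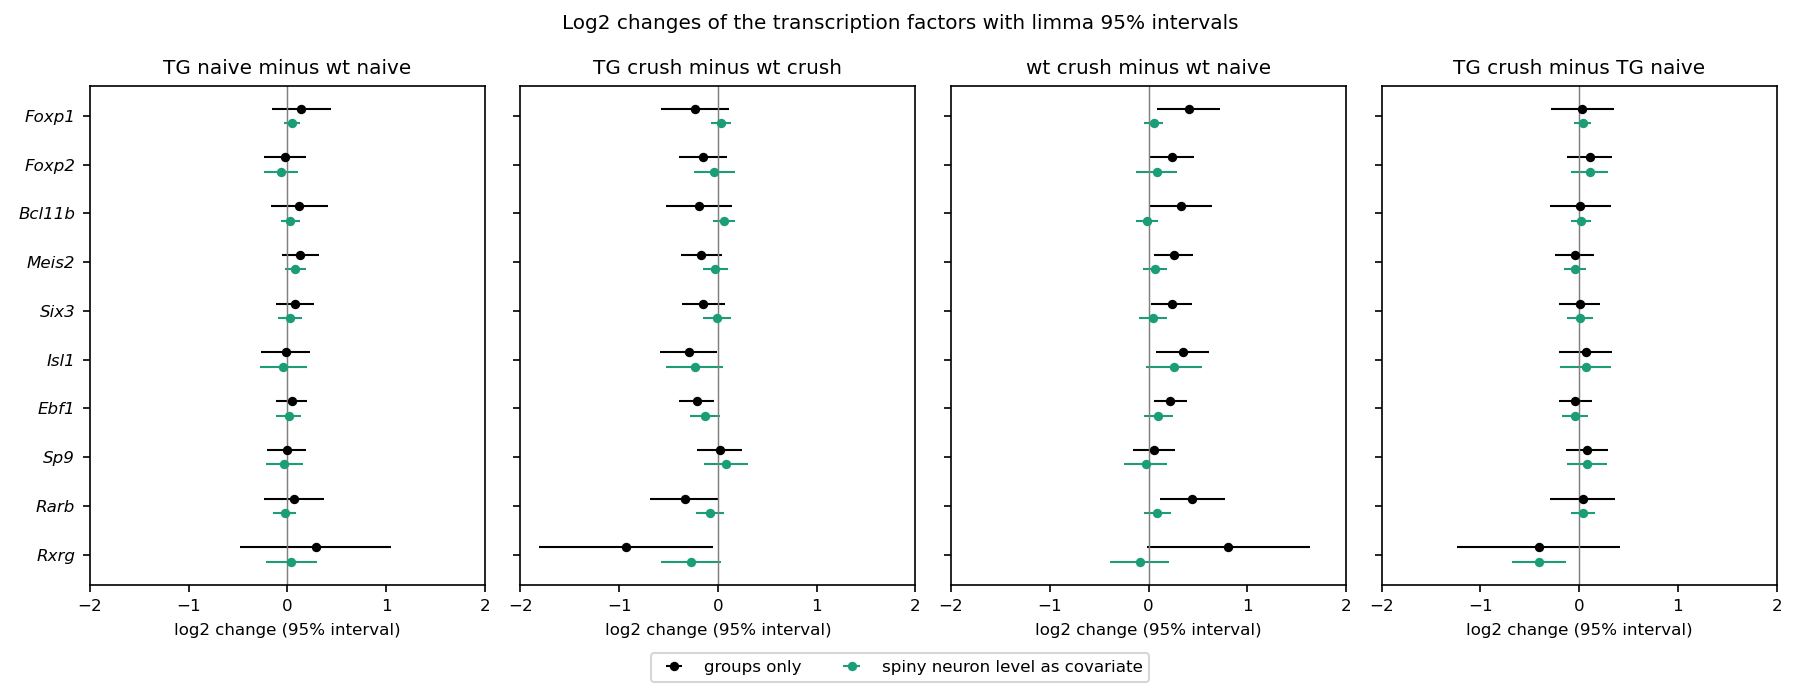
Log2 change with its 95% interval (horizontal axes) of each factor in 4 comparisons, TG naive minus wt naive, TG crush minus wt crush, wt crush minus wt naive and TG crush minus TG naive. Black points are from the fit of the groups alone and green points from the fit with the spiny neuron level. The black points of wt crush minus wt naive lie between 0.06 and 0.81, and 3 of the 10 green ones lie below 0.

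Libraries of the same group also differed in the spiny neuron level. A slope of each gene on that level was fitted within groups, so that 1 means that the factor changed in proportion to the mean of the 17 markers. Of the 10 factors, 8 rose with the level and 2 did not pass. Of 18205 genes 32.6% passed, 10.9% with a positive and 21.6% with a negative slope. Over all tested genes the slope had a median of -0.07 and a 5th to 95th percentile range of -0.57 to 0.45.

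The factors fell along a wide range of slopes. Rxrg had the steepest slope, 2.50 (SE 0.16, 95% interval 2.16 to 2.84, limma adjusted p = 1.98e-12), so its RNA varied more than the mean of the markers. Foxp1 at 0.99 (SE 0.05), Rarb at 0.99 (SE 0.08) and Bcl11b at 0.95 (SE 0.06) had intervals that hold 1. That is the slope of a gene that varies in proportion to the mean of the markers.

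Meis2 at 0.53 (SE 0.07) and Six3 at 0.52 (SE 0.08), the homeodomain factors of striatal precursors, varied less than the mean of the markers. Foxp2 had a slope of 0.43 (SE 0.11, limma adjusted p = 0.00423) and Ebf1 one of 0.32 (SE 0.08, limma adjusted p = 0.00275). Isl1 at 0.24 (SE 0.16, limma adjusted p = 0.265) and Sp9 at 0.23 (SE 0.12, limma adjusted p = 0.148) did not pass. Their 95% intervals, -0.09 to 0.56 for Isl1 and -0.02 to 0.48 for Sp9, leave out 1. Without library 223 of the TG crush group the slopes were 0.03 for Isl1 and 0.12 for Sp9.

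**Figure D3:**
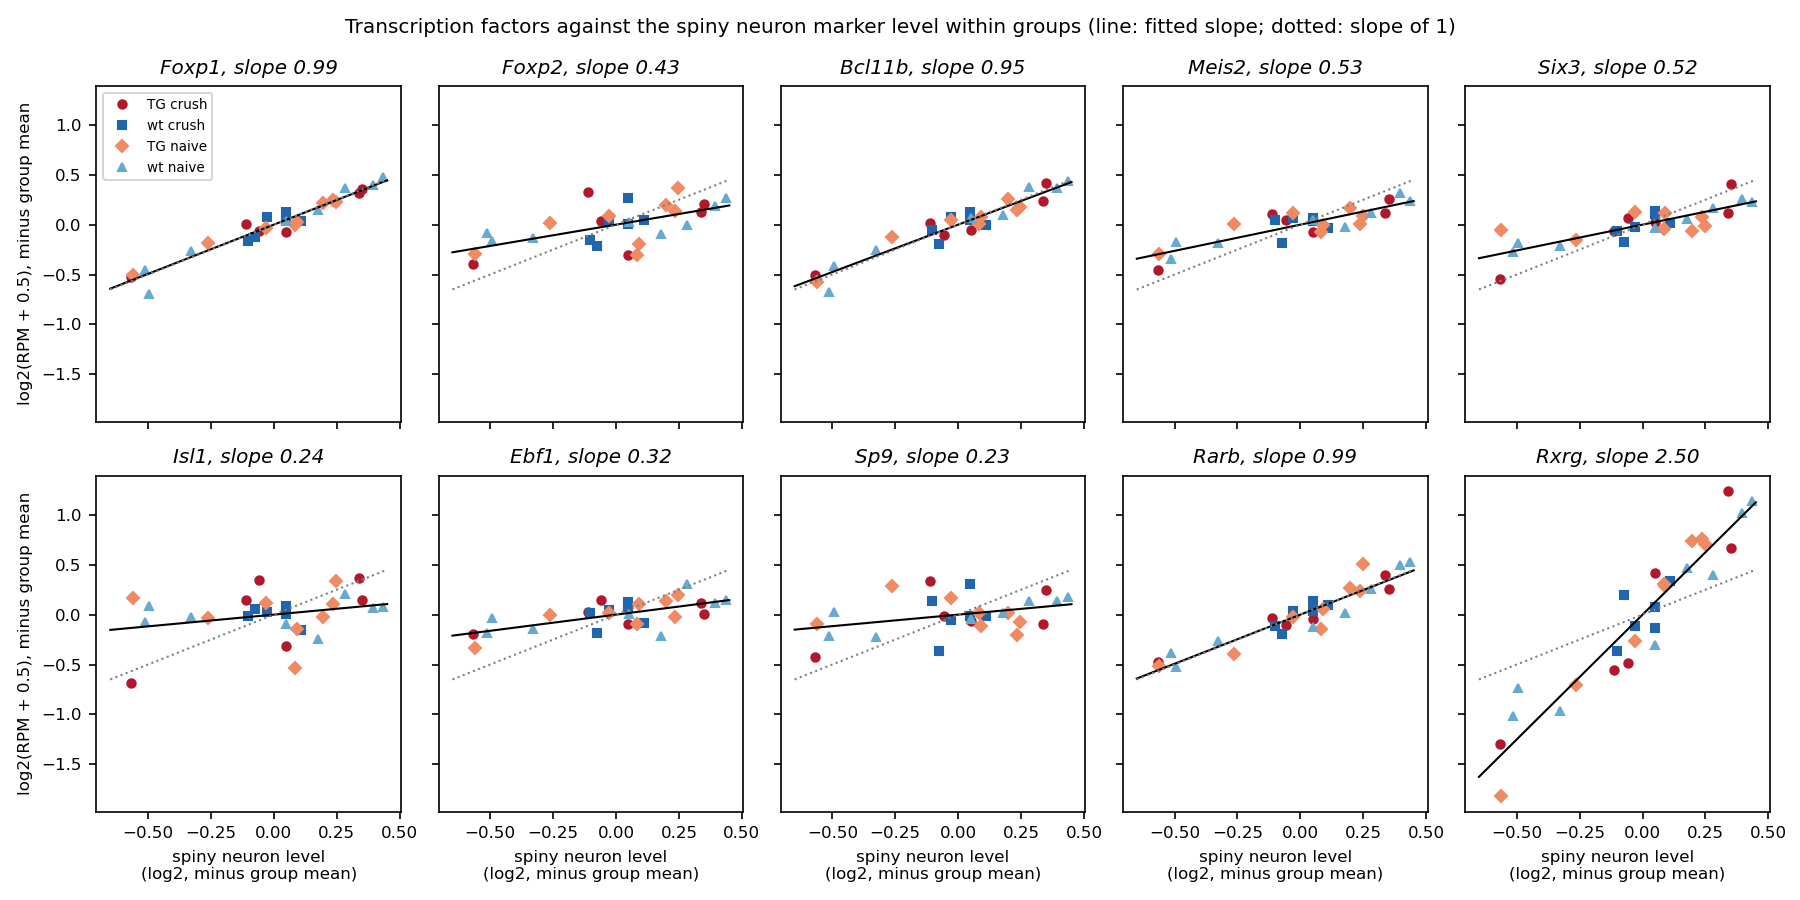
Log2 (RPM + 0.5) of each factor (vertical axes) against the spiny neuron level (horizontal axes), both minus their group means, with 1 point per library of TG crush, wt crush, TG naive and wt naive rats. The solid line is the slope over all groups and the dotted line a slope of 1. The slope is 2.50 for Rxrg, 0.99 for Foxp1 and 0.23 for Sp9.

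The slope was positive in each of the 4 groups taken alone for 8 factors. It lay between 1.78 and 3.18 for Rxrg, between 0.88 and 1.12 for Foxp1, between 0.80 and 1.02 for Bcl11b and between 0.87 and 1.33 for Rarb. Meis2 ranged from 0.24 to 0.65, Ebf1 from 0.24 to 0.47, Six3 from 0.14 to 1.02 and Foxp2 from 0.33 to 1.49. Isl1 had positive slopes in 2 groups, within a range of -0.48 to 0.89, and Sp9 in 3, within -0.18 to 0.82. In wt crush rats the level itself spanned 0.21, so the slopes of that group rest on a narrow range.

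With the spiny neuron level also in the fit, slopes were taken on 3 further levels. On the level of cortical neuron markers, Sp9 passed with a slope of 0.26 (SE 0.08, limma adjusted p = 0.0438), which is 1 of 10 factors beside 6.59% of 18196 genes. The call was lost in 6 of 10 other settings. It was also lost when any 1 of 14 libraries was left out, with slopes of 0.21 to 0.27 (limma adjusted p = 0.0504 to 0.206). Without the 5 libraries above 20 RPM of Slc17a7 the slope of Sp9 was 0.67 (SE 0.23, limma adjusted p = 0.113). Meis2 had a slope of 0.13 (SE 0.04, limma adjusted p = 0.0643).

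On the level of cholinergic interneuron markers, no factor passed, beside 0.192% of 18201 genes. Isl1, which these interneurons express, had the largest slope of the 10, 0.55 (SE 0.15, 95% interval 0.26 to 0.85, limma adjusted p = 0.0883), and Six3 one of 0.24 (SE 0.08, limma adjusted p = 0.131). Library 223 was the lowest of the TG crush group both in the cholinergic level, at 3.16, and in Isl1, at 2.11 RPM. An unadjusted p under 0.05 was found for 3 of 10 factors, Isl1, Six3 and Sp9, beside 19% of all genes, and limma-voom called 0. On the level of direct minus indirect pathway markers, no factor passed and none of 18192 genes did (0%), while 5.4% of genes and none of the 10 factors had an unadjusted p under 0.05, and limma-voom also called 0. There Isl1 had a slope of 1.40 (SE 0.76) and Sp9 one of -0.34 (SE 0.62), with intervals of -0.17 to 2.96 and -1.61 to 0.94. Rxrg at 1.23 (SE 0.82), Foxp2 at 0.96 (SE 0.55), Rarb at 0.64 (SE 0.37), Ebf1 at 0.61 (SE 0.40) and Foxp1 at 0.15 (SE 0.28) were also positive. Six3 at -0.68 (SE 0.38), Bcl11b at -0.18 (SE 0.31) and Meis2 at -0.14 (SE 0.35) were negative. Without library 192 of the TG naive group the slope of Isl1 was 2.10.

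The genes whose values followed each factor most closely were listed by Pearson's r over 28 libraries, centred on the group means, among 13018 genes. These libraries share their tissue content, and r is given as a description. For Rxrg they were Coro7 (0.98), Actn2 (0.98) and Tac1 (0.98), the last the precursor of substance P in direct pathway neurons. For Foxp1 they were Adcy5 (0.97), the adenylyl cyclase of spiny neurons, Smpd3 (0.97) and Drd1 (0.97), the D1 dopamine receptor. For Bcl11b they were Ppp3ca (0.97), Kcnab1 (0.96) and Klhl2 (0.96), and for Rarb Rcn1, B3gnt2 and Mn1 (0.95 to 0.96). Actn2, Adcy5 and Kcnab1 are among the 17 markers of the spiny neuron level.

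For Meis2 the closest were Rab40b (0.96), Elmod1 and Wasf1, for Six3 Cx3cl1 (0.93), Irf2bpl and Ckb, and for Foxp2 Ddx5 (0.92), Osbpl8 and Lmo4, the last a LIM-only cofactor. The factors of low slope had less close neighbours. They were Pard6b (0.85), Coro2a and Slc35d3, a direct pathway gene, for Ebf1, Kit (0.83), Slc7a14 and Has3 for Isl1, and Ywhaz (0.83), Lnp and Lrrtm3 for Sp9.

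Related genes were read from 4 lists for comparison. Of 13 other factors of the lateral ganglionic eminence, 8 passed the filter, and of these 3 rose and 1 fell with the spiny neuron level, beside 10.9% and 21.6% of all genes. The homeobox genes Dlx6 and Dlx5 had slopes of 0.62 (SE 0.09) and 0.48 (SE 0.12), Zfp503 one of 0.45 (SE 0.10) and Tshz1 one of -0.27 (SE 0.07). The call of Dlx5 was lost with array weights and that of Tshz1 without the 5 libraries above 20 RPM of Slc17a7. Of 21 other factors listed for adult spiny neurons, all tested, 12 rose and 2 fell, with a median slope of 0.30. That list also holds factors not particular to these cells, such as Npas1, Nr1d1 and Mef2c. Nr4a1 at 1.26 (SE 0.26), Foxo1 at 1.17 (SE 0.12) and Egr3 at 0.83 (SE 0.09) were the highest of them. Nr4a1 and Egr3 are activity-induced genes and Foxo1 a forkhead factor of insulin signalling. Npas1 at -1.01 (SE 0.30), a factor of pallidal neurons, was the lowest.

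Of 18 further retinoid genes, 16 were tested, and 4 rose and 4 fell with the level, beside 10.9% and 21.6% of all genes. The retinol carrier Rbp4 had a slope of 1.03 (SE 0.09), near those of Rarb and Foxp1, and the receptor Rxrb one of 0.17 (SE 0.06), far below that of Rxrg. The call of Rxrb was lost without any 1 of 6 libraries, wt naive 195, 196 or 199, TG naive 192, or TG crush 222 or 223, at slopes of 0.14 to 0.16. It was also lost with array weights and without the 5 libraries above 20 RPM of Slc17a7. Cyp26b1, which degrades retinoic acid, had the lowest slope, -2.06 (SE 0.39). Aldh1a2, which makes it, had one of -0.66 (SE 0.20), and -0.43 with the call lost without TG crush 223. That call was also lost with quantile normalization and with array weights. Of 10 factors of the basal forebrain and cholinergic neurons, 8 were tested, and none rose and 4 fell, beside the same shares of all genes: Lhx8 at -0.97 (SE 0.16), Gbx1 at -0.92 (SE 0.25), Nkx2-1 at -0.52 (SE 0.17) and Zic1 at -0.30 (SE 0.11). The calls of Gbx1 and Nkx2-1 were lost without the 5 libraries above 20 RPM of Slc17a7. That of Nkx2-1 was also lost with quantile normalization and without TG naive 192, the latter at a slope of -0.46. Its slope was -0.80 without TG crush 223. The call of Zic1 was lost without any 1 of 8 libraries, wt naive 197, 198 or 201, TG naive 187, 188, 189 or 192, or TG crush 223, at -0.32 to -0.22. It was also lost with no filter, median-of-ratios rescaling, quantile normalization and array weights.

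On the cortical level, 5 of the 21 factors listed for adult spiny neurons rose and 1 fell, 1 of 16 retinoid genes rose, and no gene of the other lists passed, beside 6.59% of all genes. Mef2c, a factor of many cortical neurons, had the highest slope of the 21, 0.42 (SE 0.10), and Nr4a1 the lowest, -0.66 (SE 0.15). The call of Mef2c was lost without TG crush 220, at 0.36, and that of Nr4a1 without wt naive 202, at -0.40. Foxp4 at 0.32 (SE 0.08), Bcl11a at 0.31 (SE 0.07), Klf16 at 0.18 (SE 0.04) and Mef2d at 0.17 (SE 0.05) also rose. The calls of Foxp4, Klf16 and Mef2d were each lost with array weights, without TG naive 190 and without TG crush 223. That of Klf16 was also lost without TG crush 220, and that of Mef2d without wt naive 201 and with quantile normalization. Cyp26b1 had a slope of 1.21 (SE 0.18). Without the 5 libraries above 20 RPM of Slc17a7 the calls of Mef2c, Foxp4, Mef2d and Cyp26b1 were lost and the slope of Nr4a1 was 0.17. On the cholinergic level Lhx8, a determinant of cholinergic identity, rose with a slope of 0.72 (SE 0.13, limma adjusted p = 0.00837). That call was lost without library 223 of the TG crush group, at a slope of 0.47, and with array weights and with median-of-ratios rescaling.

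**Figure D4:**
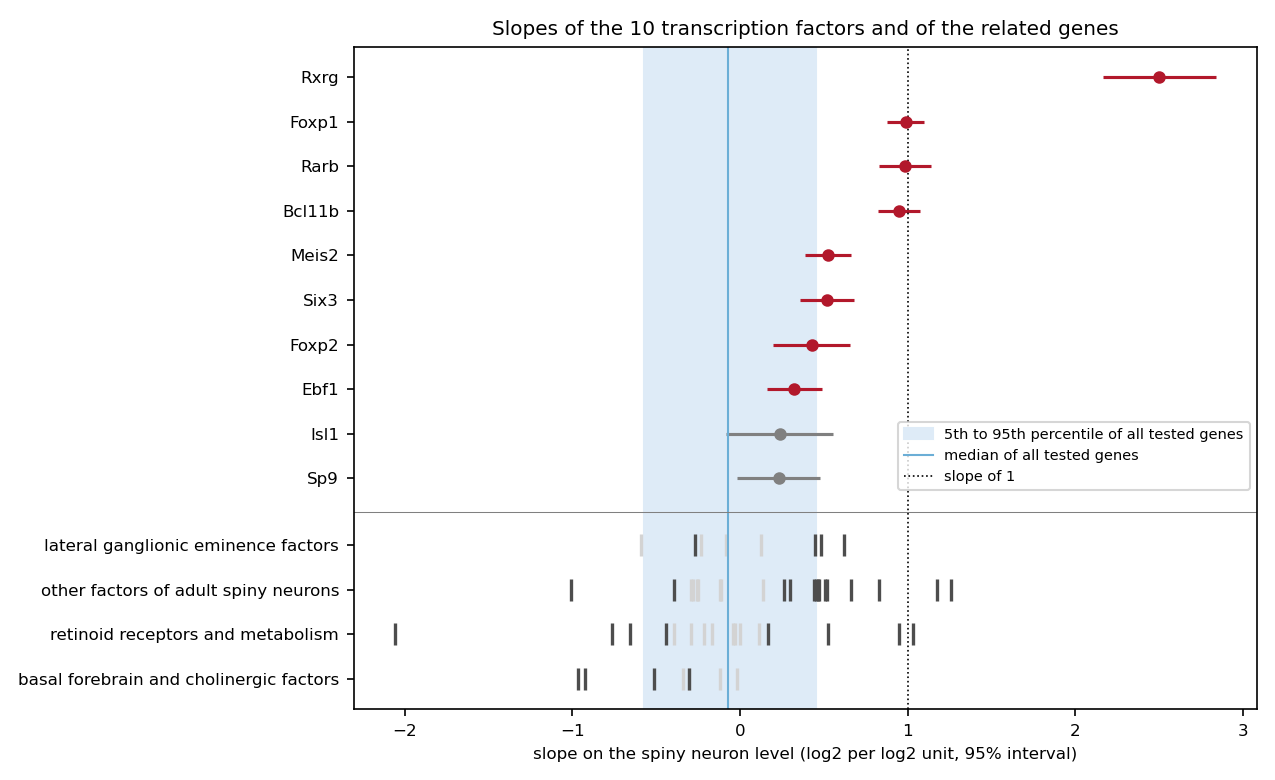
Slopes on the spiny neuron level (horizontal axis, log2 per log2 unit) of the 10 factors, with 95% intervals, red where the test was passed and grey where it was not, and of the genes of the 4 related lists as ticks, dark where passed and light where not. The shaded band is the 5th to 95th percentile of all tested genes, -0.57 to 0.45, and the dotted line marks 1. Rxrg lies at 2.50, beyond every other gene shown.

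In the comparisons of groups few of the related genes passed. Between TG crush and TG naive rats, 2 of 16 retinoid genes fell and none rose, beside 2% of all genes that fell and 1.08% that rose. Dhrs3, which reduces retinaldehyde, fell by 0.50 (SE 0.07, limma adjusted p = 0.000114), with means of 12.3 ± 1.16 RPM in TG crush and 17.7 ± 2.21 RPM in TG naive libraries. Rarg, another retinoic acid receptor, fell by 0.36 (SE 0.08, limma adjusted p = 0.0122), with means of 9.10 ± 1.37 RPM in TG crush and 11.7 ± 0.67 RPM in TG naive libraries (SD, n = 6 and 8). Both passed in every alternative that tested them, and Rarb and Rxrg passed in none. In wt rats Dhrs3 had a change of -0.27 (limma adjusted p = 0.0845) after crush. Rarg averaged 9.19 ± 1.07 RPM in wt crush and 10.1 ± 0.93 RPM in wt naive libraries. TG naive libraries had the highest mean of both genes. Against wt naive libraries they stood higher by 0.20 in Rarg (limma adjusted p = 0.857) and by 0.18 in Dhrs3 (limma adjusted p = 0.897). Markers of other cell types moved in TG crush against TG naive rats too. Negative changes were found in 9 of 10 markers of endothelium and pericytes, 2 of them called, in 9 of 10 of microglia, 1 called, and in 8 of 10 of astrocytes, none called. The 4 tested blood markers had positive changes (median 0.76), none called. The part of these cell types in the result was not tested.

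Of the 21 factors listed for adult spiny neurons, the clock repressor Nr1d1 rose in TG crush against TG naive rats by 0.54 (SE 0.09), and none of the 8 basal forebrain factors passed. Nr1d1 averaged 105 ± 15.1 RPM in TG crush, 127 ± 3.62 RPM in wt crush, 72.1 ± 8.45 RPM in TG naive and 99.6 ± 13.8 RPM in wt naive libraries. It also fell in TG against wt rats, by 0.46 (SE 0.08, limma adjusted p = 0.0197) in the naive arm and by 0.37 (SE 0.06) over both arms, each beside 0.0165% of all genes that fell. The call over both arms was lost without the 5 libraries above 20 RPM of Slc17a7. The call in the naive arm was lost in 3 of the other settings. It was also lost without any 1 of 7 libraries, TG naive 188, 190 or 192, or wt naive 196, 198, 200 or 202, at -0.45 to -0.42. No gene of the 4 lists passed between TG crush and wt crush, between wt crush and wt naive rats, or in the interaction.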

How the data were processed

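Per the labels' protocols, 28 striatal samples were sequenced with a stranded mRNA kit as single-end 75 nt reads. The sources used here give neither each library's sequencing run nor the strand setting of the counting. STAR 2.6.1a, featureCounts of Subread 1.6.3, DESeq2 1.22.2 and the build Rnor_6.0 are named in the submitters' processing notes. The authors deposited RPKM values with decimal commas, recorded here as another unit and treated as RPKM per kilobase of gene span (39538 of 39538 genes). RPKM times length in kilobases gave RPM, which sum to 1000000 in each library, and 100% of the RPM were whole reads within a tolerance of 0.02. The deposited depth was 29151455 to 38407359 reads per library.

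Log2 (RPM + 0.5) of the 18222 genes with at least 0.5 RPM in at least 6 libraries was fitted on the 4 groups with limma 3.58.1 (R 4.3.3), with variances that follow the mean. Fold changes are on this log2 scale, which understates changes of low genes. Genes were called at a Benjamini-Hochberg adjusted p under 0.05. Slopes on marker levels were fitted with the groups as covariates, and the markers were left out of the tested genes. Array weights down-weight libraries that vary more. All 10 factors were named, and for each the 3 genes of highest r. Related genes were to be named where they passed, at most the 2 of lowest p per list and comparison. For slopes the named ones are instead examples chosen after their values were seen, and the counts cover the rest. The factors, gene lists and tests were chosen with earlier results of these data known. The fit was tested on simulated data with the noise of each gene drawn independently. That noise lacks the spread in tissue content that genes of these libraries share, so the test does not cover it. Alternatives were pseudocounts of 0.1 and 1, no filter, RPM of at least 1 in 14 libraries, the RPKM scale, median-of-ratios and quantile scaling, limma-voom on the whole reads, array weights, robust variances, a fit of the compared groups alone, the spiny neuron level as covariate, leaving out 5 libraries over 20 RPM of Slc17a7, and leaving out each library. Results of some related genes that passed are not reported here by name.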

Additional observations from a re-analysis of the deposited data

How the results depend on the processing

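No paired analysis was possible because no replicate number is shared between groups. In the 6 comparisons of groups the count of factors called stayed at 0 in every alternative, leave-one-out fits included, with 1 exception: array weights called 3 in wt crush against wt naive rats. The count of 8 called slopes on the spiny neuron level was 8 or 9 in every alternative and 8 in each leave-one-out fit. The count of 1 on the cortical level was 0 with no filter, median-of-ratios, quantile normalization, limma-voom, array weights and without the 5 libraries high in Slc17a7, and 0 to 2 when leaving out 1 library. It was 2 without wt naive 198 or 202, wt crush 203 or TG naive 188. It was 0 without wt naive 199, 200 or 201, wt crush 205, 206, 207 or 210, TG naive 187, 189 or 190, or TG crush 214, 220, 223 or 226.

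Changes of sign touched no factor that was called. Between TG naive and wt naive rats, Sp9 was 0.0091 with median-of-ratios and 0.011 with quantile normalization, Isl1 0.013 with quantile normalization, Rarb -0.027 with the spiny neuron level as covariate, and Foxp1 -0.015, Rarb -0.056 and Rxrg -0.015 without the libraries high in Slc17a7. Between TG crush and wt crush rats, Foxp1 was 0.030 and Bcl11b 0.059 with the covariate, and Sp9 -0.051 without those libraries. Between wt crush and wt naive rats, Bcl11b was -0.014, Sp9 -0.028 and Rxrg -0.091 with the covariate. Between TG crush and TG naive rats, Meis2 was 0.032 with array weights, and Bcl11b was -0.0076, Six3 -0.0034 and Rarb -0.013 without the libraries high in Slc17a7. The called slope of Nr4a1 on the cortical level turned to 0.17 without them. The causes were not tested.

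Leaving out 1 library gave ranges that cross 0. In TG crush against TG naive rats they were -0.070 to 0.11 for Bcl11b, -0.041 to 0.14 for Foxp1, -0.012 to 0.20 for Isl1, -0.097 to 0.047 for Meis2, -0.044 to 0.13 for Rarb and -0.076 to 0.11 for Six3, each highest without TG crush 223. Sp9 ran from -0.0072 to 0.13 in wt crush against wt naive rats and from -0.055 to 0.10 in TG crush against wt crush rats. Between TG naive and wt naive rats the ranges were -0.073 to 0.023 for Foxp2, -0.063 to 0.061 for Isl1, -0.0050 to 0.15 for Rarb and -0.049 to 0.022 for Sp9. The slope of Sp9 on the direct minus indirect level ran from -0.59 to 0.032.

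Over all genes, 562 were called between TG crush and TG naive rats, against 123 in a fit of those groups alone, 1753 with array weights, 566 with limma-voom, 1218 without TG crush 223 and 224 without TG crush 220. Between wt crush and wt naive rats, 29 were called, against 8 with the covariate, 1436 with array weights and 27 with limma-voom, and 12 to 510 when 1 library was left out. Over all alternatives the count ran from 2 to 7 around 6 between TG naive and wt naive rats, 1 to 6 around 1 between TG crush and wt crush rats, 2 to 8 around 7 over both arms, 0 to 5 around 1 for the interaction, 456 to 1572 around 1200 for the cortical slope and 2 to 324 around 35 for the cholinergic slope. Isl1, at 68 to 181 reads, was the least covered factor.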
